A study of Mus musculus with 12 samples.

Results

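The 9 genes described here encode proteins of the myelin sheath and of the oligodendrocyte membrane that forms it: *Mbp*, *Mobp*, *Cnp*, *Mag*, *Mog*, *Mal*, *Cldn11*, *Tspan2* and *Opalin*. They were chosen by name, with earlier results of these data known. Each of the 9 was found in both deposited tables, among 16855 genes on chow and 16744 on the HFD. Hypothalamus RNA was sequenced from 12 male mice aged 8 weeks, 3 in each of 4 groups: each genotype, WT or *Gpr75*-/-, was kept on chow or was given a HFD for 2 weeks from the age of 6 weeks. The background of both genotypes was C57BL/6J, and the *Gpr75*-/- line carries a CRISPR/Cas9 allele that ends translation early, in every cell and not in a chosen cell type. The libraries were made from whole dissected tissue with a SMART-Seq mRNA kit. Of 8 hypothalamic peptide genes, chosen after the tables were seen, 6 had a mean normalized count of at least 100 on each diet.

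Oligodendrocytes wrap axons of the brain in many layers of their own membrane. In compact myelin the cytoplasm is squeezed out, and small basic proteins such as MBP hold the inner membrane faces together. The rims of the sheath keep cytoplasm and carry other proteins, among them the enzyme CNP and the adhesion protein MAG at the axon side, while MOG lies on the outermost surface. Only some of the 9 proteins therefore belong to compact myelin in the strict sense. In whole tissue, fewer oligodendrocytes and less of an mRNA in each oligodendrocyte cannot be told apart.

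The stretch of 250 bases before the transcription start was read for 8 of the genes (all but *Mbp*) from RefSeq (mouse build GRCm38.p6, which is not the GRCm39 build that the submitters' processing notes name). It was searched on both strands for ACAAAG, the core that SOX family factors bind, SOX10 being the one needed by myelinating oligodendrocytes. At least 1 match stood before a start of 5 of these 8 genes, compared with 18.6% of the 27025 genes in the table. The promoter of *Mobp* held 6 matches, and no other of the 32851 windows held as many. *Cnp* and *Opalin* held 1 match each, and 16.5% of all windows held at least 1. The other genes with a match were *Mag* and *Tspan2*. The 3 promoters below are shown 5′ to 3′ on the strand of the gene because they contrast the repeated matches of *Mobp* with a single one, and capitals mark ACAAAG or its reverse complement. *Mobp* lies at chr9:120149492-120149741 (plus strand), *Cnp* at chr11:100574689-100574938 (plus strand) and *Opalin* at chr19:41077114-41077363 (minus strand). A match is a description of these letters and not evidence of binding.
Mobp: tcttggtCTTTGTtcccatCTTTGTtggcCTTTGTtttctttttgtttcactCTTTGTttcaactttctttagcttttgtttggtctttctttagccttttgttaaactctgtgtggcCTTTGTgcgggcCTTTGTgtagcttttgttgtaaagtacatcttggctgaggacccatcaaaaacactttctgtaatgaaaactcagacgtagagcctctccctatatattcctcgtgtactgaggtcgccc
Cnp: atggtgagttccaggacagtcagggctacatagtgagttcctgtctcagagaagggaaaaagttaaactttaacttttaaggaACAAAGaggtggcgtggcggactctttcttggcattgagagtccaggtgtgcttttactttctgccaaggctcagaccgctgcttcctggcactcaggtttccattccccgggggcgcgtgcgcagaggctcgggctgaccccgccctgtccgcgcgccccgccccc
Opalin: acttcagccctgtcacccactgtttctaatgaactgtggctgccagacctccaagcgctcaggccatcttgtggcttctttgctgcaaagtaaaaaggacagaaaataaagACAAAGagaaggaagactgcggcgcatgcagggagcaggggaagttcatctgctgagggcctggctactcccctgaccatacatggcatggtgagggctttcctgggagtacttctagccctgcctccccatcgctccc

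Each table gives 1 level per genotype, without values of single mice, so no SD or standard error stands beside any level here. The authors' standard errors and p-values of the differences were not used, so none stands beside a difference. A level was recovered in CPM, the reads of a gene as a share of all reads of its library, scaled to a fixed total, and a difference is the log2 CPM of *Gpr75*-/- mice minus that of WT mice. The authors rounded the group values to 2 decimals, and the limits in parentheses are the smallest and largest difference that this rounding allows. They are not confidence intervals and hold nothing of the variation between mice. The depth of an average mouse was 18280462 normalized counts on chow and 19420111 on the HFD. As a background, differences were taken over every gene with a mean normalized count of at least 100, namely 12413 genes of the chow table and 12509 of the HFD table. The median difference of these genes was 0.00 on each diet, and 90% of them lay between -0.20 and 0.19 on chow and between -0.17 and 0.18 on the HFD.

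The mRNA of the targeted gene does not check the genotype labels, since the allele was made to cut short the protein and not to remove the transcript. *Gpr75* was at 16.7 CPM in WT and 24.6 CPM in *Gpr75*-/- mice on chow, and at 19.9 and 18.4 CPM on the HFD.

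All 9 myelin genes had a lower level in *Gpr75*-/- than in WT mice on each diet. On chow the median difference of the 9 was -0.16, or 0.896 of the WT level, and on the HFD it was -0.28, or 0.825 of the WT level. The rounding limits lay wholly below 0 for 7 genes on chow and for 9 on the HFD. Among all genes of the background, 39.3% were below 0 on chow and 33.6% on the HFD. A difference of at least 0.2 toward lower levels was found for 3 of the 9 genes on chow, where 4.91% of all genes reached it, and for 7 of the 9 on the HFD, where 3.37% did. Within the rounding limits these counts could be 2 to 6 on chow and 5 to 9 on the HFD. On both diets at once it was reached by 3 of the 9 and by 0.827% of 12331 genes. Whether these differences exceed the variation between mice could not be tested from group values. The 9 genes and the size of 0.2 were chosen with earlier results of these data known, so the shares are a description only.

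**Figure D1:**
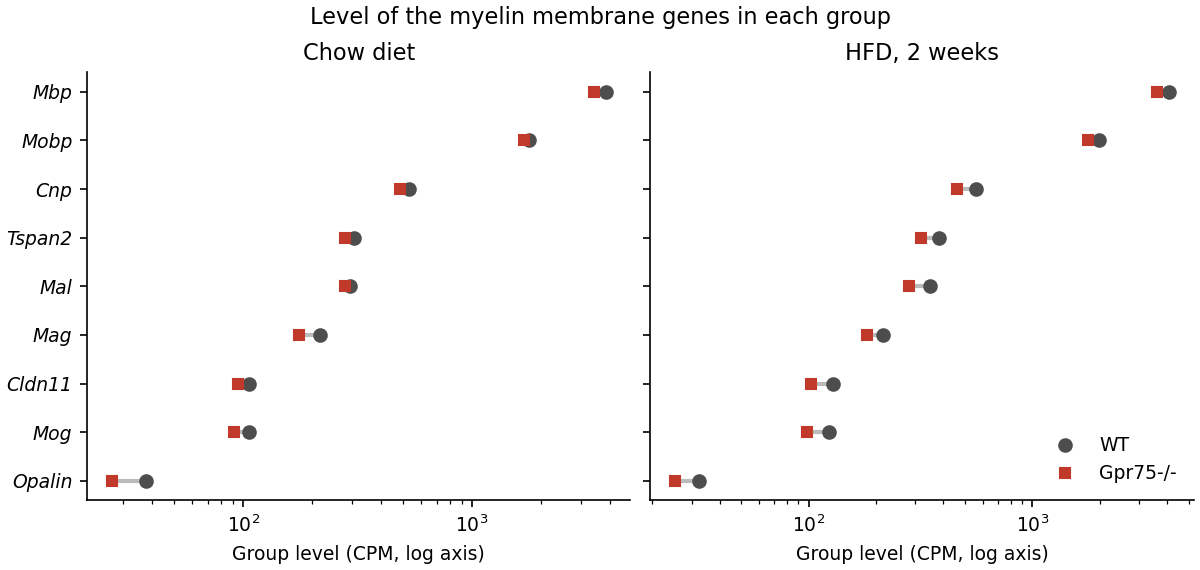
Level of each of the 9 genes in the 4 groups in CPM on a log axis, with chow on the left and the HFD on the right; circles are WT and squares *Gpr75*-/- mice, 1 group value each. Every square lies to the left of its circle, from *Mbp* at 3838 against 3394 CPM on chow down to *Opalin* at 32.5 against 25.2 CPM on the HFD.

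*Mbp* and *Mobp* encode the small basic proteins that lie between the inner faces of the membrane in compact myelin. Gene positions are those of the tables, on GRCm39. *Mbp* (ENSMUSG00000041607, chromosome 18, 82493271 to 82603762) was at 3838 CPM in WT and 3394 CPM in *Gpr75*-/- mice on chow, and at 4085 and 3608 CPM on the HFD. By mean normalized count it was gene number 7 of the chow table and number 6 of the HFD table. Its differences were almost equal, -0.18 (-0.27 to -0.09) on each diet. *Mobp* (ENSMUSG00000032517, chromosome 9, 119978773 to 120010550), whose promoter holds the repeated matches shown above, was at 1776 and 1678 CPM on chow and at 1990 and 1776 CPM on the HFD. That is a difference of -0.08 on chow, with an upper limit of 0.00, and of -0.16 (-0.25 to -0.08) on the HFD. These most abundant mRNAs of the group thus had its smallest differences on the HFD, though their rounding limits overlapped those of other genes, among them *Mag*.

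*Cnp* encodes a cyclic nucleotide phosphodiesterase that keeps cytoplasm-filled channels within the sheath from closing. *Cnp* (ENSMUSG00000006782, chromosome 11, 100465730 to 100482555) was at 532 CPM in WT and 484 CPM in *Gpr75*-/- mice on chow, and at 559 and 461 CPM on the HFD. The ratio to WT was 0.908 (0.866 to 0.953) on chow and 0.825 (0.787 to 0.866) on the HFD.

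*Mag* and *Mog* encode immunoglobulin-like membrane proteins, of which MAG binds the axon and MOG faces the outside of the sheath. *Mag* (ENSMUSG00000036634, chromosome 7, 30598601 to 30614298) was at 216 CPM in WT and 176 CPM in *Gpr75*-/- mice on chow, and at 216 and 183 CPM on the HFD. Its difference was -0.30 (-0.36 to -0.24) on chow and -0.24 (-0.30 to -0.18) on the HFD, 2 values whose rounding limits overlap. *Mog* (ENSMUSG00000076439, chromosome 17, 37321635 to 37334290) was at 106 and 91.5 CPM on chow and at 123 and 98.4 CPM on the HFD. Here the HFD difference was the larger, at -0.32 (-0.38 to -0.27) against -0.21 (-0.26 to -0.16) on chow.

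*Mal*, *Cldn11* and *Tspan2* encode proteins that cross the membrane several times. MAL takes part in the sorting of lipid-rich membrane, CLDN11 is the claudin of the tight junctions between myelin layers, and TSPAN2 is a tetraspanin. *Mal* (ENSMUSG00000027375, chromosome 2, 127475146 to 127498615) was at 292 CPM in WT and 279 CPM in *Gpr75*-/- mice on chow, and at 349 and 279 CPM on the HFD. Its difference was the smallest of the 9 on chow, at -0.06 with an upper limit of 0.00, but its rounding limits overlapped those of other genes, among them *Mobp*. On the HFD it was -0.32 (-0.39 to -0.26). *Cldn11* (ENSMUSG00000037625, chromosome 3, 31204069 to 31218473) was at 106 and 94.9 CPM on chow and at 128 and 102 CPM on the HFD, or 0.896 (0.863 to 0.929) and 0.798 (0.768 to 0.828) of the WT level. *Tspan2* (ENSMUSG00000027858, chromosome 3, 102641845 to 102708829) was at 305 and 279 CPM on chow and at 383 and 319 CPM on the HFD, or 0.915 (0.876 to 0.957) and 0.834 (0.797 to 0.873) of the WT level. All 3 of these genes differed more on the HFD than on chow, by more than rounding allows.

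*Opalin* encodes a sialylated membrane protein of oligodendrocytes. *Opalin* (ENSMUSG00000050121, chromosome 19, 41050149 to 41065552) was the rarest of the 9, at 37.6 CPM in WT and 26.6 CPM in *Gpr75*-/- mice on chow, and at 32.5 and 25.2 CPM on the HFD. Its difference was the strongest of the 9 on chow, at -0.50 (-0.54 to -0.46). On the HFD it was -0.36 (-0.40 to -0.32), and its rounding limits overlapped those of *Cldn11*, *Mog*, *Mal*, *Cnp* and *Tspan2*. Over all genes of the background, 0.290% were as low or lower on chow and 0.512% on the HFD. For the other 8 genes these shares ran from 1.48% (*Mag*) to 24.8% (*Mal*) on chow and from 0.735% (*Cldn11*) to 5.35% (*Mobp*) on the HFD.

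**Figure D2:**
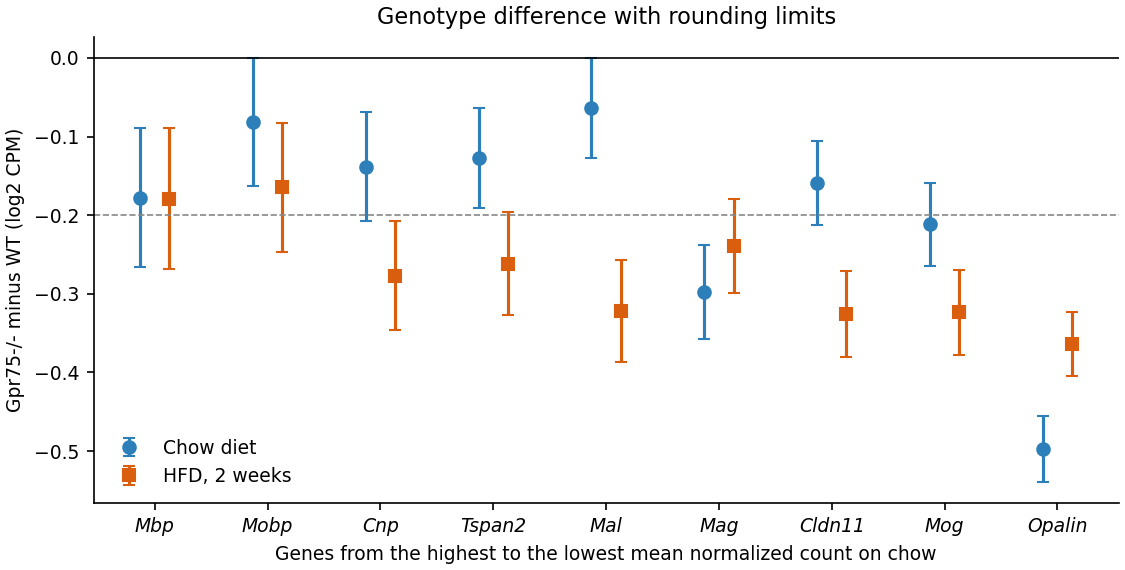
Difference of *Gpr75*-/- minus WT mice in log2 CPM for the 9 genes, ordered from the highest to the lowest mean normalized count on chow; circles are chow, squares the HFD, bars the limits set by rounding, and the dashed line -0.2. On the HFD the points run from -0.16 for *Mobp* to -0.36 for *Opalin*, while on chow *Mal* at -0.06 and *Opalin* at -0.50 lie farthest apart.

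In the group values the shift was not even from abundant to rarer myelin mRNAs. Whether this unevenness exceeds the variation between mice was not tested. Mean normalized counts of the 9 genes spanned a 108-fold range on chow, from 601 (*Opalin*) to 65035 (*Mbp*), and a 131-fold range on the HFD. On the HFD the differences lay between -0.36 and -0.16, and tended to be larger for the rarer genes. The median was -0.18 for the 3 most abundant genes (*Mbp*, *Mobp*, *Cnp*), -0.26 for the middle 3 (*Tspan2*, *Mal*, *Mag*) and -0.33 for the 3 least abundant (*Cldn11*, *Mog*, *Opalin*). Across the 9 genes the Spearman correlation of difference and level was 0.85 and the Pearson correlation with log2 level 0.90. The lower limit of *Mobp*, -0.25, lay above the upper limit of *Opalin*, -0.32, so rounding alone does not make the 9 differences unequal.

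On chow the differences lay farther apart, between -0.50 and -0.06, with no test of how the diets differ in this respect. The medians of the same sets of 3 were -0.14, -0.13 and -0.21, with a Spearman correlation of 0.57 and a Pearson correlation of 0.62. The Spearman correlation was 0.38 on chow and 0.79 on the HFD without *Opalin*, 0.76 and 0.81 without *Mbp*, and 0.63 and 0.68 with levels per kilobase, so the values of the diets lay close together under the last 2 settings. The correlations describe 9 genes from the same libraries and carry no p-value. Over all genes at or above the level of *Opalin*, difference and level had a Spearman correlation of 0.03 on chow (6536 genes) and -0.05 on the HFD (7054 genes).

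**Figure D3:**
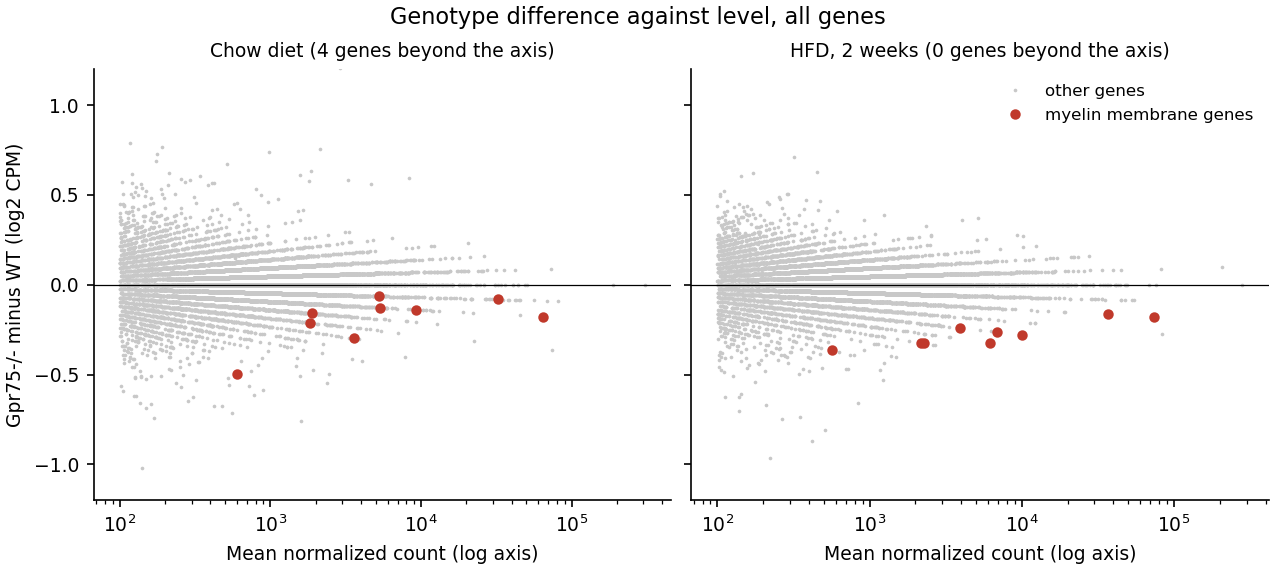
Difference of *Gpr75*-/- minus WT mice in log2 CPM against the mean normalized count (log axis) for each gene with a mean of at least 100, with the 9 myelin genes as large points; 4 genes on chow and 0 on the HFD lie beyond the axis, and the stripes are steps of the rounded values. All 9 myelin points lie below 0, between -0.50 and -0.06 on chow and between -0.36 and -0.16 on the HFD.

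The genotype difference was larger on the HFD than on chow for 7 of the 9 genes, and for 4 of these by more than rounding allows (*Mog*, *Mal*, *Cldn11* and *Tspan2*). *Mal* differed most between the diets, its HFD difference minus its chow difference being -0.26 (-0.39 to -0.13). *Opalin* went the other way, at 0.13 (0.05 to 0.22), as did *Mag* at 0.06 (-0.06 to 0.18), within rounding of 0. The median change over the 9 genes was -0.11, compared with 0.00 over the 12331 genes that passed the filter on each diet, of which 42.9% were lower by more on the HFD. Each diet has its own WT mice, and the change between diets was not tested, since the authors' comparison columns were not used. Differences between the diets within a genotype were not computed, and the CPM levels of each group are those given above.

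Divided by the summed length of all annotated exons, the levels of WT mice had the same order on chow and on the HFD, with *Mal* above *Tspan2* and *Mag* below *Mog* and *Cldn11*, unlike the order in CPM. On chow WT mice had 453 CPM per kilobase of *Mbp*, 259 of *Mobp*, 146 of *Cnp*, 105 of *Mal*, 64.2 of *Tspan2*, 62.2 of *Mog*, 56.7 of *Cldn11*, 53.0 of *Mag* and 12.8 of *Opalin*. The neighbors *Tspan2* and *Mog* lay within rounding of each other there. The exons of *Mbp* include those of its longer Golli transcripts, which lowers its value per kilobase. Together the 9 genes took 0.721% of the reads of WT and 0.650% of *Gpr75*-/- mice on chow, a ratio of 0.902. On the HFD they took 0.787% and 0.685%, a ratio of 0.871.

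The mean normalized count and the group values give the level of a gene in 2 ways. Levels from the group values were 0.977 to 1.02 times those from the mean count for the 9 genes on chow, and 0.977 to 1.01 times on the HFD, beside a median of 0.993 over all genes on each diet. For *Ttr*, the carrier of thyroid hormone made by the choroid plexus, this ratio was 0.0581 on chow, where its mean count was worth 159 CPM and its group values 5.59 CPM in WT and 12.9 CPM in *Gpr75*-/- mice. How the 3 mice of a group were combined into its value is not given in the sources used here.

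Most other genes of mature oligodendrocytes had lower levels in *Gpr75*-/- mice as well. Of 24 other mature oligodendrocyte genes at a mean count of at least 100, 22 were below 0 on chow and 21 on the HFD, with medians of -0.17 and -0.11. The shares of all genes below 0, to be read beside this list and those that follow, were 39.3% on chow and 33.6% on the HFD. *Trf*, the iron carrier transferrin, differed by -0.14 on each diet, *Plekhb1* by -0.07 on each diet, and *Car2*, a carbonic anhydrase, by -0.25 on chow and -0.13 on the HFD. A difference of at least 0.2 toward lower levels was found for 9 of the 24 on chow, where 4.91% of all genes reached it. On the HFD it was found for 7, where 3.37% of all genes did. The median of the 9 myelin genes was thus near that of this list on chow, and on the HFD it was lower.

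Enzymes of myelin lipids, 12 genes, had a median of -0.07 on each diet, with 7 below 0 on chow and 9 on the HFD. The differences within this list ran from -0.56 to 0.21 on chow and from -0.28 to 0.09 on the HFD, so the median does not stand for each gene. *Ugt8a*, which makes galactosylceramide, the typical glycolipid of myelin, differed by -0.16 on chow and -0.28 on the HFD. *Hmgcs1*, a gene of cholesterol synthesis in all cells, differed by 0.13 and -0.07, and *Degs1* by 0.06 and -0.06. Of 10 transcription factors of the lineage, 7 were below 0 on chow and 9 on the HFD, with medians of -0.11 and -0.18. *Myrf*, which drives myelin genes, differed by -0.15 on each diet, and *Olig1* by -0.06 on each. *Tcf7l2*, also abundant in thalamic neurons, differed by 0.07 on chow and -0.25 on the HFD. Among 13 genes of precursors and newly formed oligodendrocytes, 10 were below 0 on chow and 12 on the HFD, with medians of -0.06 and -0.16. Their differences ran from -0.50 to 0.07 on chow and from -0.40 to 0.00 on the HFD. *Bcas1*, a mark of newly formed cells, differed by -0.12 and -0.18, *Fyn* by -0.06 and -0.12, and *Lhfpl3* by 0.05 and -0.10. Axon and node partners of myelin, 14 genes, had medians of -0.06 and -0.07, with 9 below 0 and 0 above on chow, and 10 below and 1 above on the HFD. *Cntn1* differed by 0.00 and -0.07, *Nefl* by -0.07 on each diet, and *Ank3* by -0.13 and -0.06.

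**Figure D4:**
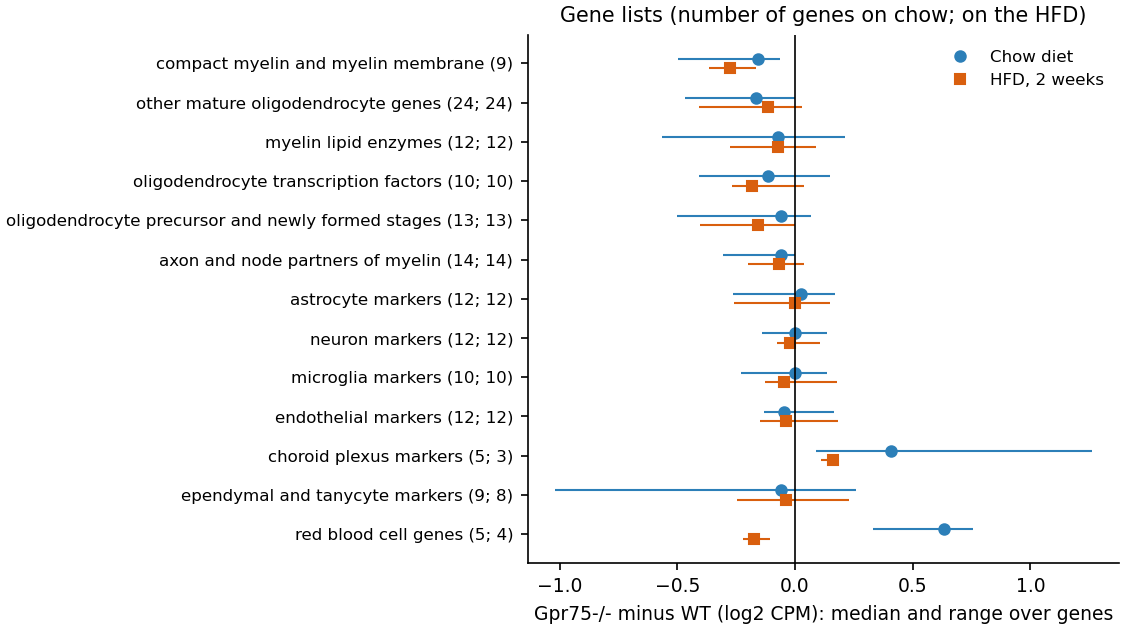
Median (points) and range over genes (lines) of the difference of *Gpr75*-/- minus WT mice in log2 CPM for the 9 myelin genes and 12 lists, on chow (circles) and on the HFD (squares), with the number of genes at a mean count of at least 100 in parentheses. The myelin genes lie wholly below 0 on each diet, and the choroid plexus and red blood cell lists lie wholly above 0 on chow.

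Lists of other cell types were set beside these values. A difference of at least 0.2 toward lower levels was found for 1 of 12 astrocyte markers on each diet. It was found for 2 of 10 microglia markers on chow and 0 on the HFD. For neuron and endothelial markers it was 0 of 12 on each diet, and for ependymal and tanycyte markers 2 of 9 and 1 of 8. Among all genes 4.91% reached it on chow and 3.37% on the HFD. Neuron markers had medians of 0.00 on chow and -0.02 on the HFD, with differences of -0.08 and 0.00 for *Snap25*, 0.00 and -0.08 for *Syt1*, and -0.14 and 0.07 for *Map2*. Astrocyte markers had medians of 0.03 and 0.00, with 0.07 and 0.00 for *Slc1a3*, 0.00 and 0.15 for *Aldoc*, and -0.14 and 0.00 for *Slc1a2*. Microglia markers had medians of 0.00 and -0.05, with -0.05 on each diet for *Csf1r*, and 0.05 and -0.09 for *Ctss*. Endothelial markers had medians of -0.05 and -0.04, with 0.16 and 0.00 for *Slc2a1*, -0.05 and 0.11 for *Itm2a*, and -0.10 on each diet for *Flt1*. Ependymal and tanycyte markers had medians of -0.06 and -0.04, with 0.26 and 0.23 for *Vim*, and 0.20 and -0.10 for *Foxj1*. On chow 5 of these 9 markers were below 0, and the lowest was *Crym* at -1.02, which differed by -0.45 on the HFD, where its mean count of 57.6 left it out of the median.

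Of the peripheral myelin list, *Prx* and *Pmp2* were in neither table. *Pmp22*, the only gene of that list with a mean count of at least 100, differed by -0.17 on chow and -0.08 on the HFD, while the rarer *Ncmap* differed by -0.46 and -0.04 and *Egr2* by -0.32 and -0.41. The choroid plexus and blood lists stood apart on chow. Of 10 choroid plexus markers, 10 were in the chow table, 5 of them at a mean count of at least 100 and all 5 above 0, with a median of 0.41. On the HFD, 6 were found in the table, of which the 3 at that count were above 0, with a median of 0.16, and the 3 rarer ones below 0. The group values of the list summed to 86.7 CPM in WT and 122 CPM in *Gpr75*-/- mice on chow, and to 79.2 and 83.7 CPM on the HFD. On chow these sums lie below the 159 CPM that the mean count of *Ttr* alone gives, so they do not measure the whole level of the list. Among these markers, *Ttr* differed by 1.21 on chow and by -1.41 on the HFD, where its mean count was 48.5, *Prlr* by 0.09 and 0.18, and *Clic6* by 0.39 and 0.11. All 5 red blood cell genes were above 0 on chow and below 0 on the HFD. The medians were 0.63 over 5 genes and -0.17 over the 4 with a mean count of at least 100, and their summed level went from 277 to 443 CPM on chow and from 314 to 280 CPM on the HFD. *Hbb-bs* differed by 0.76 and -0.11, *Hba-a1* by 0.63 and -0.15, and *Hba-a2* by 0.61 and -0.20, and these copies can share reads. The part of these lists in the myelin differences was not tested.

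Among 11567 other protein-coding genes, the 5 whose differences on the 2 diets lay closest to the medians of the 9 genes were *Ugt8a* (-0.16 on chow and -0.28 on the HFD), *Gjc3* (-0.16 and -0.27), *Atrn* (-0.17 and -0.27), *Ppp2r3a* (-0.14 and -0.28) and *Mcrip2* (-0.15 and -0.29). Closeness was the distance between 2 pairs of differences on the log2 scale, at most 0.0169 for these genes. *Mcrip2* had a mean count of 114 on chow, near the filter. *Ugt8a* and *Gjc3* are on the oligodendrocyte lists above, and the other 3 are not.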

How the data were processed

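Hypothalamus mRNA of 12 mice was sequenced in pairs of reads. The submitters' notes name STAR, featureCounts, StringTie, DESeq2 and the GRCm39 build, with no versions, and the authors ran the Astrocyte workflow. The deposited signal per gene is the authors' mean over 6 mice of counts divided by size factors. The deposited log2 group values, 1 per genotype, are rounded to 2 decimals, and their scale is not stated. Values of log2(log2(CPM) + 1), computed from the mean normalized counts, were compared with the average of the 2 group values of each gene. They lay within 0.0075 of that average for 91.4% of 12413 genes on chow and 93.0% of 12509 on the HFD. For log2(log2(CPM + 1) + 1) these shares were 33.3% and 33.5%, so the group values were decoded as log2(log2(CPM) + 1). The tables also hold the authors' own fold changes, standard errors, Wald statistics and p-values of *Gpr75*-/- against WT, which were not used. No test was run, because these columns were left out and neither table gives values of single mice.

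The genes named are the 9 members, *Gpr75*, the 3 genes of each of 13 lists with the highest mean count, and the 5 genes most like the members. Some of these genes are not reported here. *Prx*, *Pmp2* and *Crym* fall outside this rule and were picked with their values known. The members and lists were chosen with earlier results of these data known. Exon lengths came from GENCODE M21 by Ensembl identifier, and no coordinates were taken from it. Python 3.11.15, numpy 2.4.6, pandas 2.3.3, scipy 1.17.1 and matplotlib 3.10.9 were used. Alternatives were a pseudocount of 1 CPM, centring on all genes, other filters and sizes, levels per kilobase, and leaving out members.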

Additional observations from a re-analysis of the deposited data

How the results depend on the processing

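A pseudocount of 1 CPM left each of the 9 differences on each diet, and both medians, within its rounding limits and below 0. Centring on the median of all genes could alter no value, since that median was 0.00 on each diet. Leaving out each member in turn gave medians of -0.17 to -0.15 on chow and -0.30 to -0.27 on the HFD. The number of genes past a size depended on the size. With 0.1 it was 7 of 9 on chow, where 16.5% of all genes passed, and 9 of 9 on the HFD (12.5%), and with 0.3 it was 1 of 9 on chow (1.41% of all genes) and 4 of 9 on the HFD (0.919%). Without the filter on the mean count, 9.01% of all genes on chow and 6.72% on the HFD were lower by at least 0.2, and with a mean of at least 1000 these were 2.67% and 2.18%, beside 2 and 6 of the 8 members left without *Opalin*. The Spearman correlation of difference and level was 0.76 on chow without the most abundant gene, 0.38 on chow without the least abundant (chosen after seeing the data), and 0.68 on the HFD with levels per kilobase. The cause of these changes was not tested.

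No paired analysis was possible because the tables hold no values of single mice, and no mouse was left out. Rounding limits a difference to within 0.04 (*Opalin*) to 0.09 (*Mbp*), and smaller differences cannot be read from these values.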
